A study of Mus musculus with 2 samples.

Results

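Enterochromaffin cells with Tph1 transcripts but little Afp were chosen from a single-cell library of mouse small-intestinal crypts. A cell belonged to them when it had at least 5 UMIs of Tph1, which encodes the rate-limiting enzyme of serotonin synthesis outside the nervous system, and under 10 UMIs of Afp, the alpha-fetoprotein gene. UMIs are unique molecular identifiers, 1 for each captured RNA molecule. The rule found 192 of 2335 cells, or 8.22%. Tph1 and Afp therefore chose the cells, and their levels are given only as a description.

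Enterochromaffin cells are the serotonin-releasing class of enteroendocrine cells, the hormone cells scattered through the gut epithelium. They arise in the crypt from secretory progenitors that transiently express Neurog3, load serotonin into granules built around chromogranins, and release it when food compounds, irritants, microbial products or stretch act on receptors and channels at their surface. Crypt enterochromaffin cells are known to make Tac1, the precursor of substance P, and those higher on the villus make more secretin. The other enteroendocrine cells make peptide hormones such as GIP, CCK, GLP-1, ghrelin and somatostatin.

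The library came from ChgaCreER-tdTomato::Rosa26LSL-eYFP mouse tissue taken after tamoxifen, 1 mg a day for 5 days. In this line the promoter of Chga, a chromogranin gene, drives a tamoxifen-dependent Cre together with tdTomato, and Cre switches on eYFP, so every group compared below carried both transgenes and had the same treatment. Sorted eYFP+ cells and unselected epithelial cells were stained with hashtag antibodies and run together on the droplet 3′ platform of 10x Genomics; no age of the animals is stated in the labels. The labels do not say which hashtag marks which sort, and the share of any cell type follows the sort as well as the tissue.

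The members were set against 3 groups of the same library. The 75 peptide hormone cells had under 5 Tph1 UMIs and at least 0.5% of their UMIs in the sum of Gcg, Cck, Gip, Ghrl, Sst, Nts and Pyy. The 155 Afp-high enterochromaffin cells had at least 5 Tph1 and at least 10 Afp UMIs. The 1961 Chga-low cells had under 20 Chga UMIs, left out the members themselves, and included 72 of the 75 peptide hormone cells. Members had a median of 11449.5 UMIs per cell and a range of 1278 to 84521, against medians of 12924 in peptide hormone cells, 14899 in Afp-high enterochromaffin cells and 20186 in Chga-low cells.

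There was 1 gene expression library and no replicate, so no p-value is given and no gene is called changed. UMIs were summed over the cells of a group and expressed as counts per 1000000 UMIs (CPM), with exact 95% Poisson intervals that cover counting error only. A gene with at least 50 UMIs over both groups was measured. It is called higher or lower when the log2 ratio of the summed levels, with 10 CPM added to each, was at least 1 in size and the intervals were apart.

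The labels speak of a mouse in the singular, yet 1744 cells carried at least 3 Xist UMIs with no Y-linked transcript and 252 cells carried Y-linked transcripts with at most 2 Xist UMIs. Among the members, 110 were Xist cells and 45 were Y-linked cells in this sense, 15 carried both and 22 neither. Of the members, 156 belonged to hashtags 1 and 2, 7 to hashtags 3 and 4, and 29 to neither pair. Within hashtags 1 and 2, 80 members were Xist cells and 44 were Y-linked cells. Values by origin are given for some results only, and other summed levels below differed between Xist and Y-linked members too. Within hashtags 1 and 2, Gip was at 2774 CPM in Y-linked and 310 CPM in Xist members. Cck was at 3025 CPM in Y-linked and 890 CPM in Xist members. Spink4 lay the other way, at 91.4 CPM in Y-linked and 582 CPM in Xist members. Log2 ratios by origin use the Xist or Y-linked cells of all hashtags. Doublet scores in the top 6% of the library were found in 51 members (26.6%), against 12 peptide hormone cells (16%), 28 Afp-high enterochromaffin cells (18.1%) and 56 Chga-low cells (2.86%).

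The markers of the label were present in the members. Chgb, the second chromogranin, was found in each of the 192 cells, at 5128 CPM in the lowest cell, 66886 in the median and 186013 in the highest. Tac1 was found in every member as well, at 117 CPM in the lowest, 3181 in the median and 17538 in the highest cell. Tph1, used by the rule, ran from 105.5 CPM over a median of 2238 to 7949. Tph1 was present by the rule, and presence of a UMI alone says little, since B cells also held UMIs of Tac1 and Chgb as described below. Whether those came from free RNA in the droplets was not tested. The spread of Tac1 among members was wide. Afp had no UMI in 115 of the 192 members and 1 UMI in 22, and the remaining 55 had 2 to 9.

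The boundary of the rule is described once. The 19 members with 5 to 7 Tph1 UMIs held 1169 CPM of Tac1 and 28217 CPM of Chgb, while the 48 cells just outside, with 2 to 4 Tph1 UMIs, held 307 CPM of Tac1 and 5276 CPM of Chgb. The 17 members with 5 to 9 Afp UMIs held 4458 CPM of Reg4 and 104 CPM of Ucn3, while the 18 cells just outside, with 10 to 14 Afp UMIs, held 6248 CPM of Reg4 and 106 CPM of Ucn3. Olfm4 was at 1975 CPM in these 17 members and 622 CPM in the 18 cells just outside.

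Summed over cells, Tac1 reached 3292 CPM in members (interval 3230 to 3354), against 51.04 CPM in peptide hormone cells, 2846 CPM in Afp-high enterochromaffin cells and 18.1 CPM in Chga-low cells. The log2 ratio was 5.76 over peptide hormone cells and 6.88 over Chga-low cells. With every cell thinned to 2000 UMIs, Tac1 was found in 92.1% of members, 11.3% of peptide hormone cells, 92.3% of Afp-high enterochromaffin cells and 4.44% of Chga-low cells. In 79 B cells of the library, which should lack Tac1, the thinned share was 13.2% at a median depth of 2677 UMIs. The share in peptide hormone cells was thus no higher than that in B cells. The source of these UMIs was not tested. Without thinning the shares were 100% in members, 42.7% in peptide hormone cells and 16.5% in B cells.

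**Figure D1:**
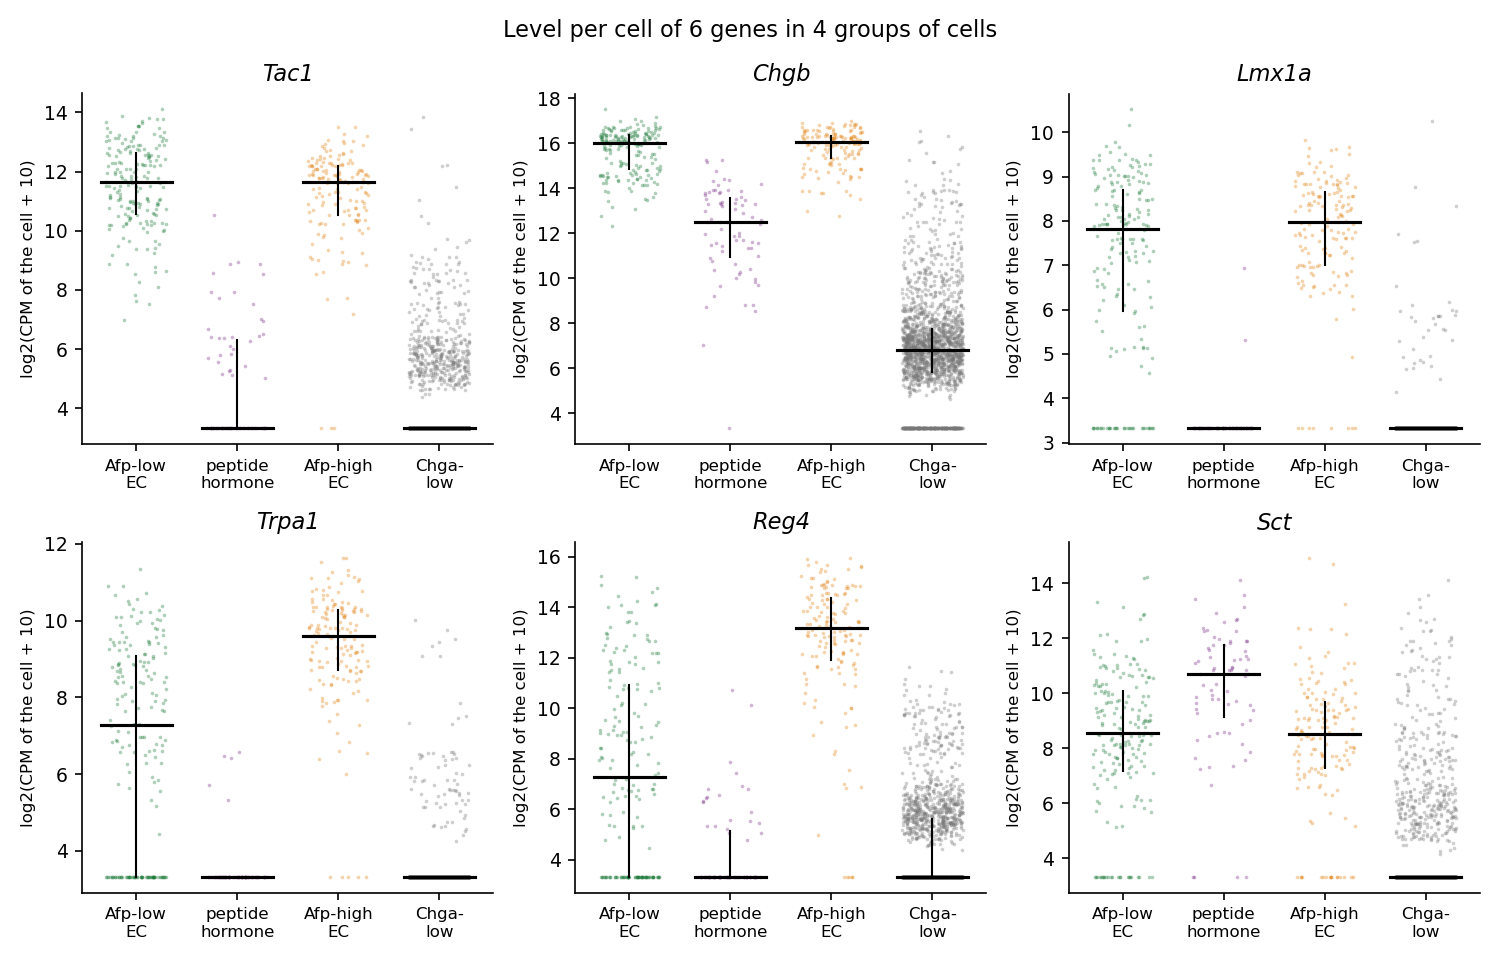
Level of 6 genes in each cell, as log2 of the cell's CPM plus 10, in Afp-low enterochromaffin cells (192 cells), peptide hormone cells (75), Afp-high enterochromaffin cells (155) and Chga-low cells (1961); each point is a cell, the bar is the median and the vertical line spans the quartiles. Tac1, Chgb and Lmx1a have similar medians in both enterochromaffin groups, while Trpa1 and Reg4 have lower medians in Afp-low than in Afp-high enterochromaffin cells and Sct has a higher median in peptide hormone cells.

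Chgb was at 42694 CPM in members, against 5899 CPM in peptide hormone cells, 53980 CPM in Afp-high enterochromaffin cells and 375 CPM in Chga-low cells. Chgb was also found in 55.9% of thinned B cells, so low levels of it in other cell types cannot be told apart from free RNA. Pcsk1, the convertase that cuts prohormones in the granule, was at 678 CPM in members, against 214 CPM in peptide hormone cells and 12.1 CPM in Chga-low cells. The 250 bases in front of the transcription start of these granule genes and of Tac1 are printed because these genes were high together in the members. The sequences are from RefSeq on GRCm38.p6, with 1 start for each gene, and capitals mark a match to a searched motif: TAATTA, the core bound by homeodomain proteins such as Lmx1a, in Tac1, and TGACGTCA, the full cyclic AMP response element, or its variant TGACGTNA in the others.
Tac1, chr6:7554811-7555060, plus strand: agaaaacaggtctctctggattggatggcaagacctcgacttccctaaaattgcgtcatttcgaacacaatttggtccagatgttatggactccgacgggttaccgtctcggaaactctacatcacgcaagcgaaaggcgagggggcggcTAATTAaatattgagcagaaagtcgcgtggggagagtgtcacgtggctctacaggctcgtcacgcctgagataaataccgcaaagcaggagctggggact
Chgb, chr2:132781392-132781641, plus strand: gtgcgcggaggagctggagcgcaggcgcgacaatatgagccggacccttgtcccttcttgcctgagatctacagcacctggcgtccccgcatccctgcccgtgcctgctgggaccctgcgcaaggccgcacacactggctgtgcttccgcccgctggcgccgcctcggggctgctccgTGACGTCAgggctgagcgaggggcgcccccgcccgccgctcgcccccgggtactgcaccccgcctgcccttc
Pcsk1, chr13:75089607-75089856, plus strand: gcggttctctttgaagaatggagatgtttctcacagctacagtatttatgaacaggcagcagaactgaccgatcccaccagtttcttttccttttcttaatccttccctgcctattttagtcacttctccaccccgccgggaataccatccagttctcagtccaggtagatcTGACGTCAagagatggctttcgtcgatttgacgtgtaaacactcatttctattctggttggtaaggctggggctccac
Chga, chr12:102554691-102554940, plus strand: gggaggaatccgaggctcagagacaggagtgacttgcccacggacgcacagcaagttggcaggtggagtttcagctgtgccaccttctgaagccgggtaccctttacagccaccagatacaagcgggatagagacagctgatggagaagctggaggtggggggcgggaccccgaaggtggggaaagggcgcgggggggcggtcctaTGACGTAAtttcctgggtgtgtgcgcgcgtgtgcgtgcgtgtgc

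Both strands were searched, and each TGACGTCA match is also a TGACGTNA match. The match ended 94 bases before the start in Tac1, 64 in Chgb, 70 in Pcsk1 and 36 in Chga, where the letters were TGACGTAA. Of 32851 promoter windows in the table, 1.55% held TGACGTCA, 2.52% held TGACGTNA and 4.84% held TAATTA. Of the 27 genes of the granule and exocytosis list found in the table, 4 held TGACGTCA, 6 held TGACGTNA and 0 held TAATTA. These motifs were chosen after the levels were known, and a match describes letters and not binding.

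Against peptide hormone cells, 263 of 8615 measured genes were higher in members, a share of 3.05%, and 110 were lower, a share of 1.28%. The median log2 ratio of all measured genes was 0.06. The 12 named as higher were Tac1, Reg4, Tpbg, Vim, Trpa1, Lmx1a, Pappa2, Fmo2, Gstt1, Rab3c, Vcan and Scn3a. The lowest ratios were those of the granin gene Scg2 and the retinol carrier gene Rbp4. Enterochromaffin markers were mostly higher in members. Of the 21 measured genes of that list that the rule did not use, 17 were higher and 1 was lower, with a median log2 ratio of 2.27.

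Tpbg, the trophoblast glycoprotein gene of the marker set, was at 442 CPM in members, against 3.05 CPM in peptide hormone cells, 679 CPM in Afp-high enterochromaffin cells and 5.02 CPM in Chga-low cells. Pappa2, a protease that frees insulin-like growth factor from its binding proteins, was at 176 CPM in members, against 2.29 CPM in peptide hormone cells, from 3 UMIs, for a log2 ratio of 3.92 with an interval of 3.37 to 4.26. Pappa2 was at 93.5 CPM in Afp-high enterochromaffin cells. Its summed level was thus higher in members than in Afp-high enterochromaffin cells, as was that of Tac1, but both differences stayed under 2-fold once 10 CPM was added to each. After thinning, Pappa2 was found in 33.9% of members, against 20% of Afp-high enterochromaffin cells and 0 of 71 peptide hormone cells, where the upper limit was 5.06%.

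Serotonin synthesis and handling was less set apart. Apart from Tph1, 3 of 12 measured genes were higher in members than in peptide hormone cells and 0 were lower, with a median log2 ratio of 0.50. Slc18a1, the vesicular monoamine transporter that fills enterochromaffin granules, was at 211 CPM in members and 35.8 CPM in peptide hormone cells. Slc18a2, its relative, was at 143 CPM in members and 4.57 CPM in peptide hormone cells, a log2 ratio of 3.39. Gch1, which starts the synthesis of the cofactor that Tph1 needs, was at 285 CPM in members and 130 CPM in peptide hormone cells. Ddc, which makes serotonin from the product of Tph1, was at 660 CPM in members and 351 CPM in peptide hormone cells and did not reach 2-fold.

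Transcription factors split evenly. Of 30 measured enteroendocrine factors, 6 were higher in members than in peptide hormone cells and 6 were lower, with a median log2 ratio of 0.50. Lmx1a, a homeodomain factor required for enterochromaffin differentiation in mice, was at 171 CPM in members, against 1.52 CPM in peptide hormone cells, from 2 UMIs, for a log2 ratio of 3.97 with an interval of 3.43 to 4.26. After thinning Lmx1a was found in 36.5% of members, in 0 of 71 peptide hormone cells and in 0 of 68 B cells. The motor neuron and pancreas factor Mnx1 (log2 ratio 2.42), the progenitor factor Neurog3 (2.09), the serotonergic factor Fev (1.51), Glis3 (1.37) and Pax4 (1.25) were the others that were higher.

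The factors that were lower were those of the peptide lineages. Isl1, a LIM homeodomain factor of several peptide hormone cells, was at 24.95 CPM in members and 582 CPM in peptide hormone cells, a log2 ratio of -4.08. Pax6, an activator of hormone genes, was at 57.5 CPM in members and 206 CPM in peptide hormone cells. Etv1 (-3.19), Onecut3 (-2.11) and Prox1 (-1.26) were also lower.

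Of 33 measured genes for granules and exocytosis, 8 were higher in members than in peptide hormone cells, 3 were lower and 22 were neither. Rab3c, a small GTPase of secretory vesicles, was at 492 CPM in members and 26.7 CPM in peptide hormone cells, a log2 ratio of 3.78. Chga was at 6741 CPM in members and 221 CPM in peptide hormone cells, and Scg2, a granin that lay the other way, was at 25.9 CPM in members and 1178 CPM in peptide hormone cells. Scgn, the calcium sensor secretagogin (log2 ratio -3.29), and Cpe, the carboxypeptidase of prohormone processing (-1.26), were also lower. Scg2 and Chga therefore marked opposite sides of this comparison.

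**Figure D2:**
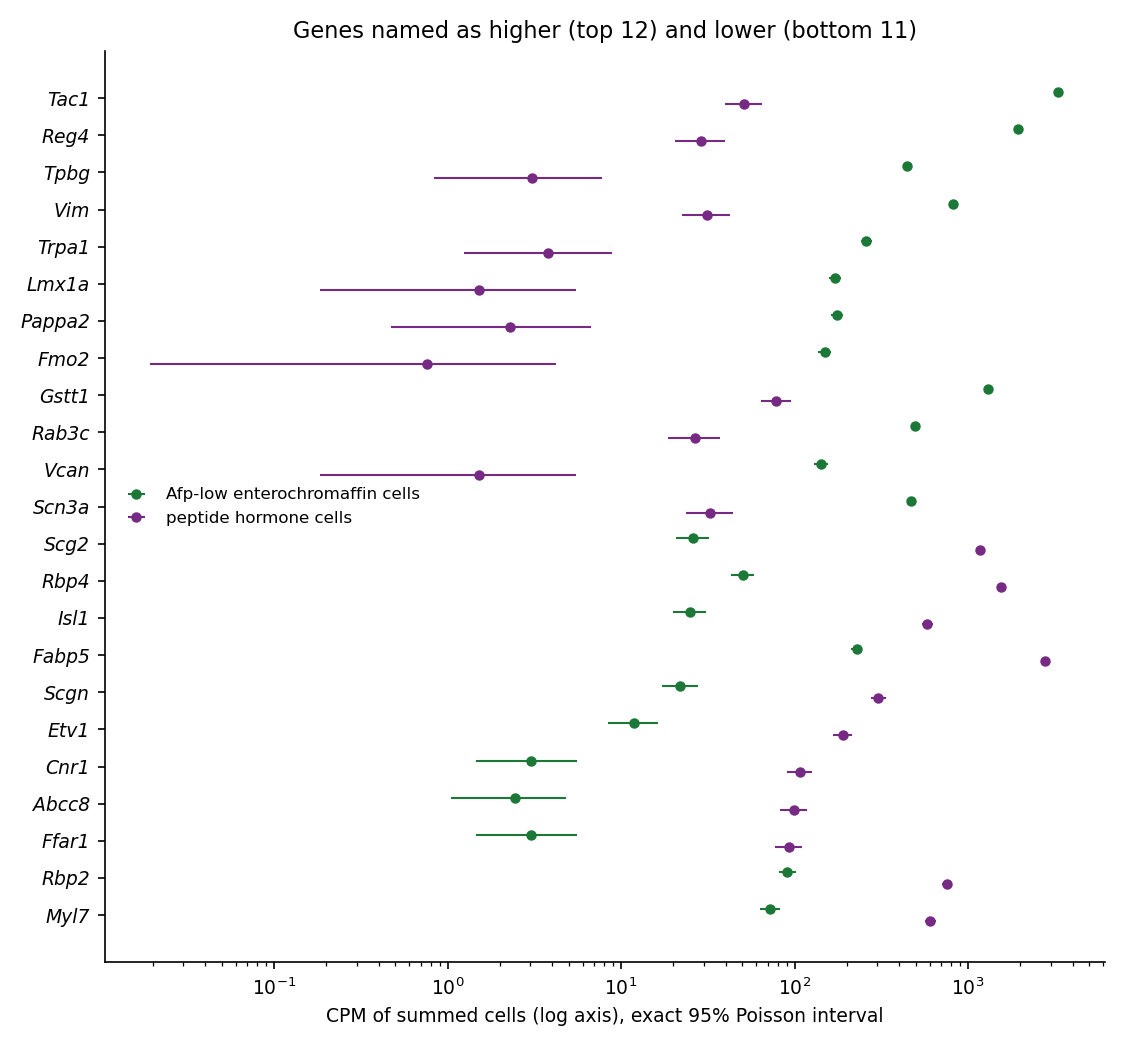
Summed levels in CPM, on a log axis, of the 12 genes named as higher and 11 of those named as lower in Afp-low enterochromaffin cells (green, upper point of each gene) than in peptide hormone cells (purple, lower point); horizontal lines are exact 95% Poisson intervals. Tac1 stands at 3292 CPM in members and 51.04 CPM in peptide hormone cells, and Scg2 at 25.9 CPM in members and 1178 CPM in peptide hormone cells.

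Receptors and sensors differed in both directions. Of 16 measured genes, 6 were higher in members than in peptide hormone cells and 5 were lower. Trpa1, the irritant channel through which enterochromaffin cells sense electrophiles, was at 260 CPM in members, against 3.81 CPM in peptide hormone cells and 704 CPM in Afp-high enterochromaffin cells. Olfr558, an olfactory receptor reported to sense short-chain fatty acids in enterochromaffin cells, was at 34.7 CPM in members and had 0 UMIs in peptide hormone cells, so it was at least 15.2-fold higher when 3 counts over that group are taken as the limit.

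Ffar2, a receptor for short-chain fatty acids, was at 194 CPM in members and 58.7 CPM in peptide hormone cells, and Sstr1, a somatostatin receptor, at 55.7 CPM in members and 9.90 CPM in peptide hormone cells. The long-chain fatty acid receptors lay the other way, with Ffar1 at 3.04 CPM in members and 92.9 CPM in peptide hormone cells and Ffar4 at 4.57 CPM in members and 38.1 CPM in peptide hormone cells. The cannabinoid receptor Cnr1 (log2 ratio -3.17) and the galanin receptor Galr1 (-1.87) were lower too. Piezo2, the mechanosensitive channel described in enterochromaffin cells, had no UMI in members. At this depth 3 counts would correspond to 0.913 CPM.

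Among 15 measured ion channel genes, 2 were higher in members than in peptide hormone cells and 3 were lower. Scn3a, a voltage-gated sodium channel subunit, was at 469 CPM in members and 32.8 CPM in peptide hormone cells. Abcc8, the sulfonylurea receptor of the ATP-sensitive potassium channel, was at 2.43 CPM in members and 99.0 CPM in peptide hormone cells. The amino acid transporter gene Slc38a11, at 90.4 CPM in members and 0 UMIs in peptide hormone cells, was at least 39.5-fold higher, and Cartpt, a neuropeptide precursor gene, at 40.2 CPM in members, was at least 17.6-fold higher. Of 5 measured CDK inhibitors, Cdkn1c was lower, at 126 CPM in members and 661 CPM in peptide hormone cells, and of 5 measured BMP targets, Bambi was lower, at 10.7 CPM in members and 45.7 CPM in peptide hormone cells.

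Of the genes named by size alone, Vim, an intermediate filament gene usually read as stromal, was at 817 CPM in members and 31.2 CPM in peptide hormone cells, while the stromal genes Col1a1, Col1a2, Col3a1, Dcn and Pdgfra had no UMI in members. Gstt1, a glutathione transferase gene, had a log2 ratio of 3.88, Fmo2, a flavin monooxygenase gene with 1 UMI in peptide hormone cells, 3.89 with an interval of 3.36 to 4.11, and Vcan, a matrix proteoglycan gene with 2 UMIs there, 3.72 with an interval of 3.17 to 4.02. The plasma retinol carrier gene Rbp4 was at 50.2 CPM in members and 1555 CPM in peptide hormone cells, the lipid chaperone gene Fabp5 at 228 CPM in members and 2770 CPM in peptide hormone cells, and the atrial light chain gene Myl7 at 72.4 CPM in members and 607 CPM in peptide hormone cells. With the origins taken apart over all hashtags, the log2 ratio of Tac1 was 6.50 in Y-linked and 5.88 in Xist cells. That of Isl1 was -3.79 in Y-linked and -4.26 in Xist cells, and that of Scg2 -3.29 in Y-linked and -6.09 in Xist cells. Within hashtags 1 and 2, Tac1 was at 3673 CPM in Y-linked members and 30.5 CPM in Y-linked peptide hormone cells. In Xist cells of these hashtags it was at 3886 CPM in members and 38.8 CPM in peptide hormone cells.

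Summed levels of genes of other epithelial lineages also differed from those in peptide hormone cells. Of 9 measured goblet genes 7 were higher in members, of 8 Paneth genes 5 were higher, and of 9 enterocyte genes 5 were lower and 1 was higher. Zg16, a goblet granule lectin, was at 662 CPM in members and 16.8 CPM in peptide hormone cells, but 5 members held 97.9% of its UMIs. Spink4, another goblet gene, was at 1194 CPM in members and 266 CPM in peptide hormone cells, with 83.6% of its UMIs in 5 members. The goblet list took at least 1% of the UMIs in 8 of 192 members, up to 11.7% in 1 cell, and in 5 of 75 peptide hormone cells. Its median share was 0.0473% in members and 0.0548% in peptide hormone cells. The Paneth list had a median share of 0.0895% in members and 0.0679% in peptide hormone cells. Whether the goblet-rich members were doublets was not tested further. Of the 9 measured endocrine progenitor genes, Neurog3 was higher and 0 were lower, and of 10 stem genes Lgr5 was higher. None of 15 cycling genes was called, and 1 of 12 stress genes, Fosb, was higher.

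Most UMIs of the peptide hormones Gip and Cck came from a few members. Gip was at 880 CPM over the members, with 96.5% of its UMIs in 5 cells, and Cck was at 997 CPM, with 84.1% in 5 cells; both served to choose the peptide hormone cells. In 6 of the 192 members the 7 hormones of the rule together reached 0.5% of UMIs. Sct, secretin, which the rule did not use, was spread more widely: it was at 888 CPM in members, against 1747 CPM in peptide hormone cells, 780 CPM in Afp-high enterochromaffin cells and 67.5 CPM in Chga-low cells. At least 10 Sct UMIs were found in 61 members (31.8%). Thinned shares for Sct were 55.0% in members, 84.5% in peptide hormone cells and 8.82% in B cells.

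Against Chga-low cells, which hold most of the other cells of the crypt preparation, 799 of 12128 measured genes were higher in members (6.59%) and 93 were lower (0.767%). Every enterochromaffin marker measured and most granule and transcription factor genes were higher. Of 20 measured enterochromaffin markers not used by the rule, 20 were higher, with a median log2 ratio of 3.76 against 0.09 over all measured genes. Of 34 granule and exocytosis genes 27 were higher, of 32 transcription factors 21, of 18 ion channels 12, of 23 receptors 8 and of 14 genes for serotonin synthesis and handling 5; in these lists Maoa, which degrades serotonin, was the 1 gene called lower.

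Neurod1, the differentiation factor that acts after Neurog3, was at 462 CPM in members and 11.1 CPM in Chga-low cells, a log2 ratio of 4.49. Insm1, a zinc-finger factor of endocrine cells, was at 230 CPM in members and 11.96 CPM in Chga-low cells, and Nkx2-2, a homeodomain factor of enteroendocrine cells, at 221 CPM in members and 6.97 CPM in Chga-low cells. None of these 3 factors was called in the comparison with peptide hormone cells. Selenop, the selenium carrier gene, was at 686 CPM in members and 25.04 CPM in Chga-low cells. The calcium channel subunit genes Cacna1a (log2 ratio 2.74), Cacna2d1 (3.37) and Cacna1h (2.61) were among the higher channels. Of 6 measured CDK inhibitors 3 were higher, led by Cdkn1a at 610 CPM in members and 77.9 CPM in Chga-low cells, and of 12 stress genes 6 were higher, among them Fos (1.58) and Fosb (2.11). Of 8 BMP targets, Id2 was higher (1.21).

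Genes of the Paneth and enterocyte lists gave 14 of the 93 genes lower in members than in Chga-low cells. Of 9 measured Paneth genes 7 were lower and of 12 enterocyte genes 7 were lower, and none was higher. The defensin genes Defa29 (log2 ratio -4.55) and Defa36 (-4.46), which are outside these lists, were lower too. The Paneth list took at least 1% of UMIs in 108 of 1961 Chga-low cells, up to 67.2% in 1 cell, and in 2 members. Its median share was 0.0895% in members and 0.0655% in Chga-low cells. The enterocyte list had a median share of 0.0486% in members and 0.0607% in Chga-low cells, with 46 Chga-low cells at 1% or more. Defa30, an alpha-defensin, was at 181 CPM in members and 5920 CPM in Chga-low cells, and Lyz1, the Paneth lysozyme, was at 117 CPM in members and 1361 CPM in Chga-low cells. Reads of near-identical defensin genes can be shared between them, so the values of single defensins are uncertain. Fabp1, a fatty acid carrier of enterocytes, was at 40.5 CPM in members and 408 CPM in Chga-low cells. Among cells of 5000 to 30000 UMIs, a range chosen after the data were seen, Defa30 had a log2 ratio of -0.82 and Lyz1 of -0.65, whereas Fabp1 had -3.50 and Tac1 7.25. No stem gene of 10 and no cycling gene of 15 was called in either direction, with median log2 ratios of -0.36 and -0.58 in the summed levels. Medians over cells lay further apart. Stem genes took a median of 0.0936% of UMIs in members and 0.457% in Chga-low cells. Cycling genes took a median of 0.0341% in members and 0.122% in Chga-low cells. T cell genes summed to 1.83 CPM in members and 114 CPM in Chga-low cells, and Cd3e, Cd3d, Cd3g, Trac and Ptprc had no UMI in members.

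**Figure D3:**
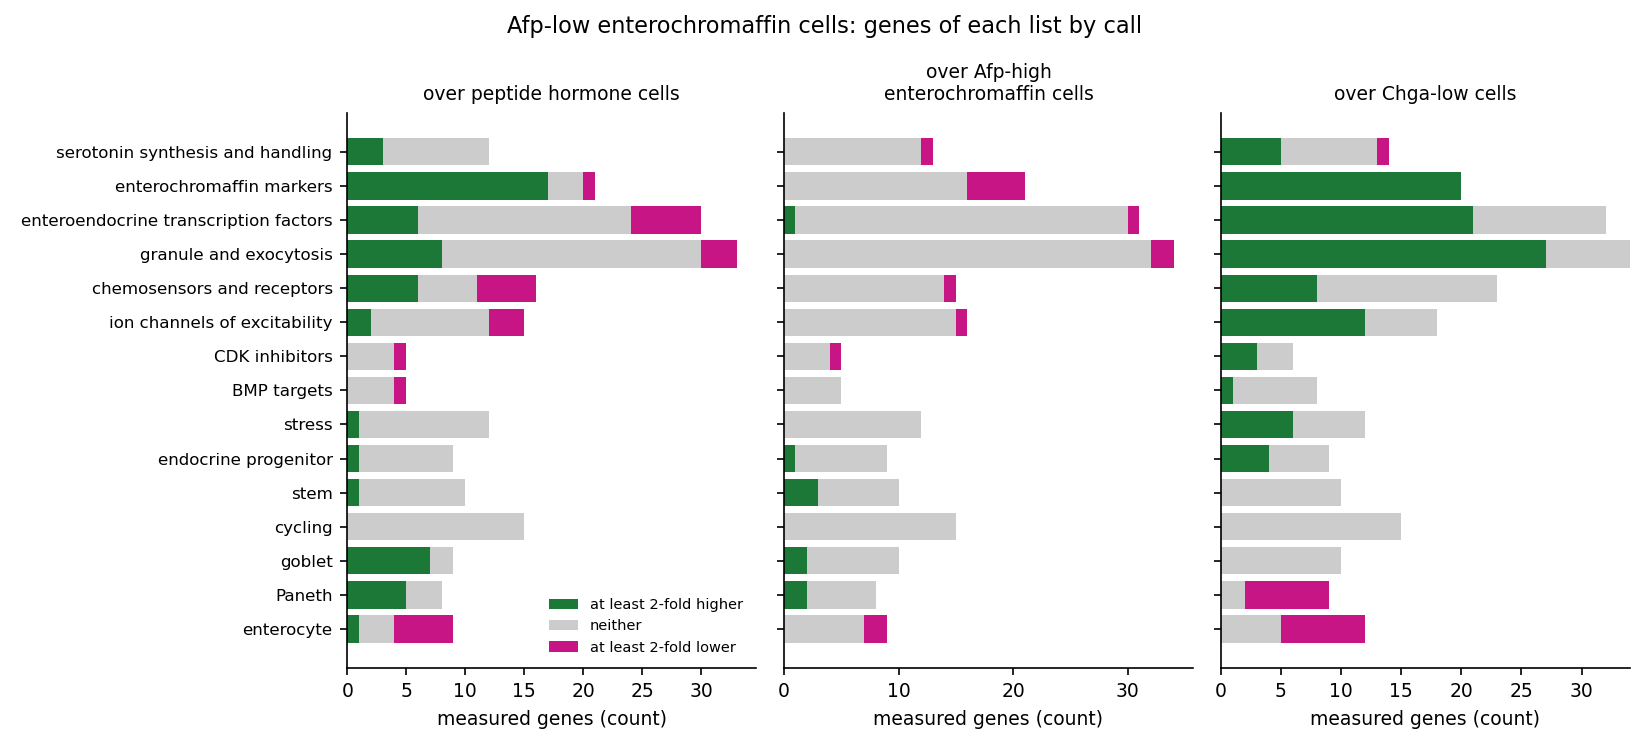
Number of measured genes of each list, leaving out those the rule used, that were higher (green), neither (grey) or lower (magenta) in Afp-low enterochromaffin cells than in peptide hormone cells, Afp-high enterochromaffin cells and Chga-low cells. Of the enterochromaffin markers, 17 of 21 were higher over peptide hormone cells, 0 of 21 over Afp-high enterochromaffin cells and 20 of 20 over Chga-low cells.

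The members resembled Afp-high enterochromaffin cells more closely. Of 9410 measured genes, 17 were higher in members (0.181%) and 67 were lower (0.712%). Afp itself separated the groups by rule. Of 21 enterochromaffin markers 5 were lower in members and 0 were higher, with a median log2 ratio of -0.45, and of 31 transcription factors 1 was higher and 1 lower. Of 34 granule genes 2 were lower, of 13 serotonin genes 1, of 15 receptors 1, of 16 ion channels 1, of 5 CDK inhibitors 1, and none was higher.

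Reg4, a secreted lectin of enterochromaffin and other secretory cells, was at 1952 CPM in members, against 10376 CPM in Afp-high enterochromaffin cells, 28.9 CPM in peptide hormone cells and 52.6 CPM in Chga-low cells. It was uneven among members, with a cell median of 146 CPM, a highest cell of 37942 CPM and 25.5% of its UMIs in 5 cells. The origins differed as well: Reg4 was at 3432 CPM in Y-linked members and 744 CPM in Xist members of hashtags 1 and 2, while in Afp-high enterochromaffin cells it was at 18024 CPM in Y-linked cells and 10394 CPM in Xist cells. Within each origin it was lower in members than in Afp-high enterochromaffin cells.

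Other plasma protein and metabolic genes that were lower in members included Alb, serum albumin, at 3.96 CPM in members and 98.9 CPM in Afp-high enterochromaffin cells, a log2 ratio of -2.96. Gstk1, a glutathione transferase gene, was at 40.5 CPM in members and 365 CPM in Afp-high enterochromaffin cells, and Ucn3, the urocortin 3 gene, at 41.4 CPM in members and 192 CPM in Afp-high enterochromaffin cells. Fabp3 (-2.25), the serine synthesis gene Psat1 (-2.05), the monooxygenase genes Fmo1 (-2.0) and Fmo2 (-1.69), Rpp25 (-1.99), the G protein regulator Rgs2 (-1.67), Slc18a2 (-1.66) and the imprinted transcript Meg3 (-1.65) were lower too. Trpa1 had a log2 ratio of -1.41 and Cdkn1a of -1.30. The 12 genes named as lower kept their direction in Y-linked cells and in Xist cells taken apart, with Alb at -3.23 in Y-linked and -3.22 in Xist cells.

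Neurog3 led the 17 genes that were higher in members. It was at 68.5 CPM in members, against 8.38 CPM in peptide hormone cells, 2.24 CPM in Afp-high enterochromaffin cells and 9.41 CPM in Chga-low cells. It was found in 34 members, 5 of which held 48.4% of its UMIs, and the highest cell stood at 4239 CPM. After thinning Neurog3 was found in 11.1% of members, 1.41% of peptide hormone cells, 0.645% of Afp-high enterochromaffin cells and 0 of 68 B cells. The log2 ratio over Afp-high enterochromaffin cells was 2.68, and it was 1.98 in Y-linked cells and 2.96 in Xist cells.

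The stem genes Olfm4 (log2 ratio 1.29), Ascl2 (1.18) and Lgr5 (1.00), 3 of the 10 on the stem list, were also higher in members than in Afp-high enterochromaffin cells. Olfm4, a secreted glycoprotein of crypt base cells, was at 2713 CPM in members, against 1105 CPM in Afp-high enterochromaffin cells, 1883 CPM in peptide hormone cells and 4411 CPM in Chga-low cells. Markers of other lineages were called beside them: of 10 measured goblet genes Zg16 (1.01) and Ccl9 (1.42) were higher, of 8 Paneth genes Lyz1 (1.10) and Defa17 (1.24) were higher, of 9 enterocyte genes Rbp2 (-1.45) and Fabp1 (-1.19) were lower, and of 3 tuft genes Dclk1 (-1.13) was lower. Their part in the stem gene values was not tested. Without the cells in the top 6% of doublet scores, Olfm4 had 1.75 and Lgr5 0.57. The antigen presentation genes Cd74 (1.03) and H2-Eb1 (1.04) and the interferon-induced gene Ifitm3 (1.12) were higher in members as well; the B cell genes Ms4a1, Ighm and Ebf1 had no UMI in members. In Y-linked cells alone Cd74 had -0.074, H2-Eb1 -0.23 and Lgr5 -0.10, so these 3 turned direction there. Pak3, a p21-activated kinase gene (1.04), the lipase gene Mgll (1.11) and the cysteine dioxygenase gene Cdo1 (1.01) completed the named genes.

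**Figure D4:**
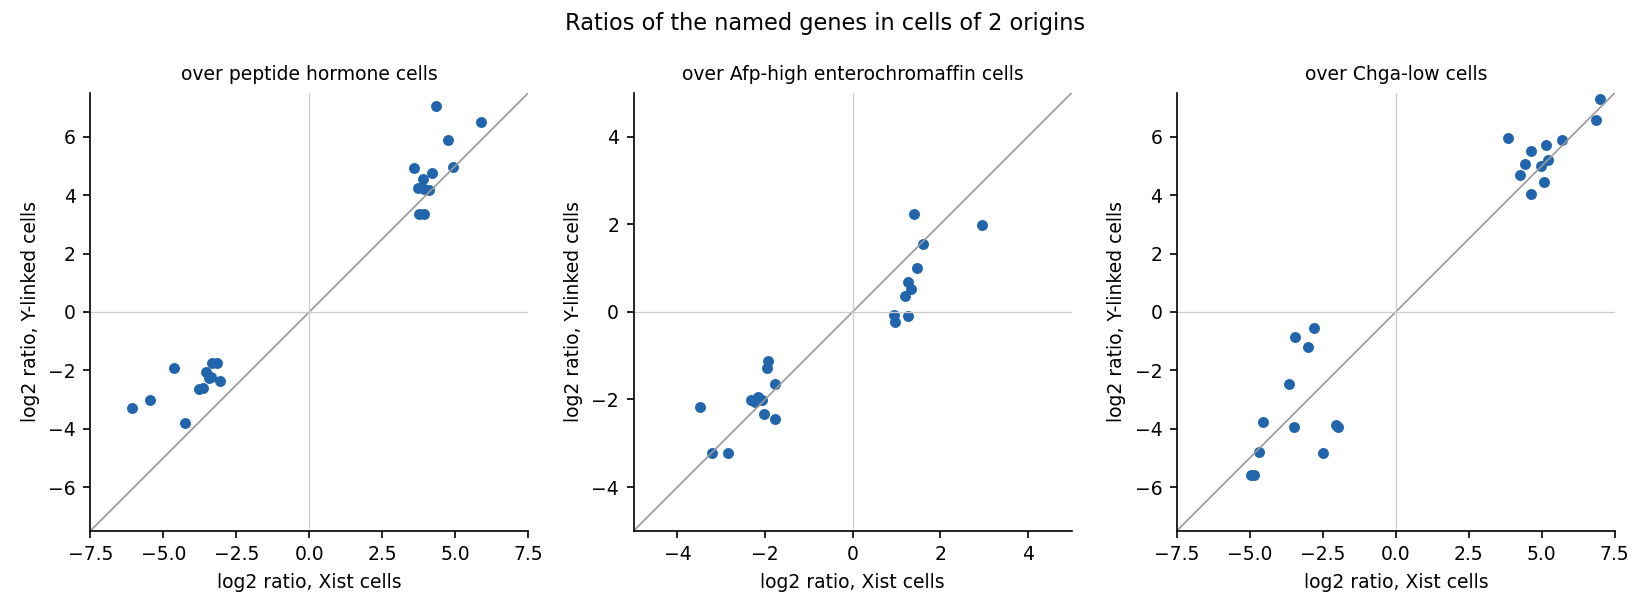
Log2 ratios of the named genes computed in Y-linked cells alone (vertical axis) against those in Xist cells alone (horizontal axis), both over all hashtags, for Afp-low enterochromaffin cells over peptide hormone cells, over Afp-high enterochromaffin cells and over Chga-low cells; each point is a gene and the diagonal marks equal ratios. In the middle panel 3 genes that were higher in Xist cells lie just under 0 in Y-linked cells, Cd74 at -0.074, H2-Eb1 at -0.23 and Lgr5 at -0.10.

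Tac1 itself varied widely among members, and the 64 with most Tac1 per UMI, called Tac1-rich here, were set against the 64 with least, called Tac1-poor. Tac1-rich members ranged from 5112 to 17538 CPM of Tac1 and Tac1-poor members from 117 to 1963 CPM. Of 6330 measured genes, 643 were higher in Tac1-rich members (10.2%) and 553 were lower (8.74%), with a median log2 ratio of 0.16. These counts include Tac1 itself, which was higher because the cells were ranked by it. Depth differed: Tac1-rich members had a median of 10855.5 UMIs and Tac1-poor members 23656.5, and 2 Tac1-rich against 35 Tac1-poor members were in the top 6% of doublet scores. Mitochondrial UMIs had medians of 2.41% in Tac1-rich and 5.57% in Tac1-poor members. The part of depth and doublets in these differences was not tested beyond the values without top-scoring cells below.

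Endocrine genes were higher with Tac1. Of 24 measured transcription factors 18 were higher in Tac1-rich members and 0 lower, of 26 granule genes 20 and 0, of 19 enterochromaffin markers 15 and 1, and of 9 ion channels 7 and 1. Trpa1 was at 595 CPM in Tac1-rich and 88.9 CPM in Tac1-poor members, Lmx1a at 398 CPM in Tac1-rich and 66.6 CPM in Tac1-poor members, and Sct at 2208 CPM in Tac1-rich and 290.0 CPM in Tac1-poor members. Neurog3 was found in 21 Tac1-rich, 6 intermediate and 7 Tac1-poor members, and was at 157 CPM in Tac1-rich and 36.4 CPM in Tac1-poor members. All 3 measured CDK inhibitors, Cdkn1a, Cdkn1b and Cdkn1c, were higher in Tac1-rich members, with log2 ratios of 1.60, 1.25 and 1.66.

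Pak3 had the highest ratio in this split, at 2.98, followed by Sct (2.89), Vcan (2.75), Vim (2.69) and Trpa1 (2.61). Ssbp2 (2.60), Atf6, a sensor of unfolded protein (2.45), Lmx1a (2.41), Baiap3, a factor of dense-core vesicle traffic (2.39), and Amigo2 (2.38) followed. Over 166 members thinned to 5000 UMIs, the genes whose counts ranked most like those of Tac1 were Vim (Spearman rho 0.76), Gstt1 (0.72), Chgb (0.70), Malat1 (0.64), Pcsk1 (0.64), Hmgn3 (0.64), Cystm1 (0.64), Tph1 (0.62), Selenop (0.62) and Serpinb1a (0.62), out of 3780 genes found in at least 20% of these cells. These values describe cells of 1 library, and a part of free RNA in them was not tested. The thinned Tac1 counts ran against the depth of the cells before thinning, with a rho of -0.39.

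Proliferation and crypt base genes lay on the Tac1-poor side. All 14 measured cycling genes and all 9 measured goblet genes were lower in Tac1-rich members, as were 7 of 9 stem genes. The goblet list took at least 1% of UMIs in 4 Tac1-poor and 0 Tac1-rich members, up to 9.98% in 1 cell, while its median share was 0.0428% in Tac1-rich and 0.0405% in Tac1-poor members. The median share of stem genes was 0.0630% in Tac1-rich and 0.541% in Tac1-poor members. Ube2c, a ubiquitin enzyme of mitosis, was at 15.8 CPM in Tac1-rich and 377 CPM in Tac1-poor members, a log2 ratio of -3.91, and Top2a, a topoisomerase of dividing cells, at 27.3 CPM in Tac1-rich and 310 CPM in Tac1-poor members. Olfm4 was at 394 CPM in Tac1-rich and 4332 CPM in Tac1-poor members, and Slc12a2, a chloride importer of crypt base cells, at 76.2 CPM in Tac1-rich and 843 CPM in Tac1-poor members. Cenpf (-3.68), Cdca3 (-3.29), Birc5 (-3.19), Ifitm3 (-3.69), Cd74 (-3.09) and the potassium channel subunit gene Kcne3 (-3.09) lay the same way.

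When cells in the top 6% of doublet scores were left out and the remaining 141 members were split again, 206 genes were higher and 172 lower in Tac1-rich members. Of the 643 and 553 genes of the full split, 178 and 150 were among them. No share of measured genes is given for this split, where fewer cells entered the sums. These counts therefore do not tell whether fewer genes differed or fewer were measured. The log2 ratio was then -3.28 for Ube2c, -4.01 for Olfm4, -2.89 for Top2a, 2.06 for Trpa1 and 1.67 for Lmx1a. Stem genes took at least 1% of UMIs in 11 members, 10 of them Tac1-poor.

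**Figure D5:**
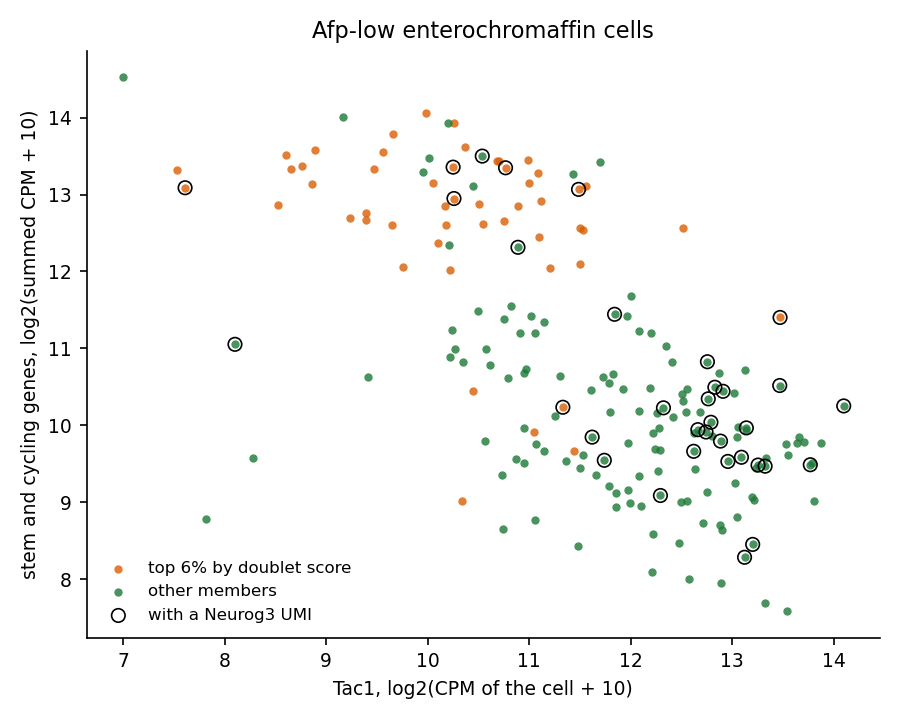
Each point is 1 of the 192 Afp-low enterochromaffin cells, with its Tac1 level on the horizontal axis and the summed level of the stem and cycling genes on the vertical axis, both as log2 of the cell's CPM plus 10; orange marks the 51 cells in the top 6% of doublet scores and rings mark the 34 cells with a Neurog3 UMI. Most orange cells lie at the upper left, with much stem and cycling RNA and little Tac1, and 21 of the 34 ringed cells belong to the 64 with most Tac1.

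Cell-to-cell variation of UMIs among the members is described by the Fano factor. The Fano factor, the variance of a gene's UMIs over its mean, is 1 for pure counting, and its median was 1.36 over 607 genes in the 166 thinned members. For equal relative variation it rises with the mean, which was 286 thinned UMIs for Chgb and 1.64 for Zg16. It therefore does not rank genes of unlike level by relative variation. The highest values belonged to Gip (267), Cck (136), Spink4 (117), Zg16 (99.9), Chgb (83.4), Reg4 (76.4), Agr2 (60.5), Reg3b (60.3), Tff3 (58.8), Defa24 (38.6), Fcgbp, Reg3g and Sct (26.4), besides Gm26917 and Gm42418. Hormones of other enteroendocrine cells and goblet and Paneth products thus made up most of this list, with Chgb, Reg4 and Sct as the enterochromaffin markers on it.

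Members of the 2 origins within hashtags 1 and 2 differed at few genes. Of 5787 measured genes, 21 were higher in Y-linked than in Xist members (0.363%) and 34 were lower (0.588%). Tac1 was at 3673 CPM in Y-linked and 3886 CPM in Xist members, and Lmx1a at 225 CPM in Y-linked and 181 CPM in Xist members. Apart from Reg4, Krt20, a keratin of mature epithelium, was at 139 CPM in Y-linked and 24.6 CPM in Xist members, and Olfr558 at 85.1 CPM in Y-linked and 15.4 CPM in Xist members. Cartpt lay the other way, at 6.31 CPM in Y-linked and 43.8 CPM in Xist members. Zg16 was at 18.9 CPM in Y-linked and 686 CPM in Xist members, and it is the goblet gene that 5 members nearly held alone. The origins are 2 sets of cells with no replicate, so sex and animal cannot be told apart.

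The transgenes were present in the members. YFP was at 163 CPM in members, against 170 CPM in peptide hormone cells, 226 CPM in Afp-high enterochromaffin cells and 47.9 CPM in Chga-low cells, and it was found in 146 of 192 members (76.0%). The tdTomato transcript, driven with Cre from Chga, was at 240 CPM in members, against 44.9 CPM in peptide hormone cells, 359 CPM in Afp-high enterochromaffin cells and 11.9 CPM in Chga-low cells. It had a log2 ratio of 2.18 over peptide hormone cells, while YFP differed by less than 2-fold there. YFP UMIs also reflect the sort, which enriched YFP+ cells.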

How the data were processed

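The deposited data were raw counts of UMIs per gene and cell from 1 gene expression library, with hashtag antibody counts of the same barcodes. The submitters' processing notes name Cell Ranger and Seurat with no version, and software 3.1.0 stands in the header of the matrix. The labels name GRCh38 while the gene identifiers are mouse, so no coordinates of the data were used. The authors' table keeps 2335 of 11248 barcodes by a filter that no label or header states, and it matched the deposited matrix at every entry (0 differences). Depth was 51238250 UMIs, 1002 to 129719 per cell with a median of 19078, which limits genes under about 1 CPM in the members. The authors' normalized table was not used.

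Cells were grouped by the stated UMI limits, UMIs were summed, and CPM, exact Poisson intervals, log2 ratios (10 CPM added) and exact Clopper-Pearson shares after thinning to 2000 UMIs were computed (Python 3.11.15, numpy 2.4.6, scipy 1.17.1, pandas 2.3.3; figures with matplotlib 3.10.9). A hashtag pair was assigned at 3 times the other pair. No cell was removed as a doublet; Scrublet in scanpy 1.11.5 called 2 cells, so the top 6% of its scores were left out as an alternative. B cells for the background share had at least 3 Cd79a UMIs. The summed comparison and the thinning were tested on simulated data.

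The named genes were the 12 highest and 12 lowest ratios in each comparison (10 and 10 for the split by Tac1) among called genes seen in 10% or more of the higher group's cells and with at most 50% of their UMIs in 5 cells. Genes the rule used, mitochondrial genes, unnamed models, Xist and Y-linked genes were left out, and near-identical families were limited to 3. Members of the gene lists serve as further examples. Krt20, Olfr558, Cartpt, Zg16, Gip, Cck and Spink4 in the comparison of origins were picked after their values were seen. The members and lists were chosen with earlier results of these data known. Alternatives changed the pseudocount, the UMI minimum, the weighting of cells, the limits of the rule, the origin of cells and the barcodes used. Some results are not reported here. Barcodes outside the authors' table entered only such an alternative. Promoter sequences were matched by symbol to the RefSeq table on GRCm38.p6.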

Additional observations from a re-analysis of the deposited data

Results flagged for a closer look

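Among barcodes of the deposited matrix that the authors' table leaves out, 120 with at least 1000 UMIs met the rule for Afp-low enterochromaffin cells, a signal in data that no comparison above used. Their median was 10695.5 UMIs, against 11449.5 in the members. Mitochondrial UMIs had a median of 14% in them and 3.64% in the members. Of the 120, 53 had a mitochondrial share no higher than the single highest share among all kept cells. Tac1 was at 2279 CPM in these barcodes and 3292 CPM in the members, Chgb at 27269 CPM in these barcodes and 42694 CPM in the members, and Lmx1a at 104 CPM in these barcodes and 171 CPM in the members. The filter that left them out was not tested.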

How the results depend on the processing

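The 192 members became 312 with all barcodes of at least 1000 UMIs, 110 among Xist cells, 45 among Y-linked cells and 7 among cells of hashtags 3 and 4, where no ratio was computed against so few cells. Genes higher and lower than in peptide hormone cells (263 and 110) numbered 141 and 46 with a minimum of 200 UMIs, 399 higher without the top 6% of doublet scores, 414 higher with Tph1 at 0.1% of UMIs, and 52 lower in Y-linked cells. Genes higher than in Chga-low cells (799) numbered 1595 with 1 CPM added, 1343 without top doublet scores and 1282 with Tph1 at 0.1%. Genes lower than in Chga-low cells (93) numbered 421 with 1 CPM added, 429 with a mean over cells, 547 without top doublet scores, 468 with Tph1 at 0.1%, 223 in Y-linked cells and 347 in cells of 5000 to 30000 UMIs. Genes higher than in Afp-high enterochromaffin cells (17) numbered 74 with 1 CPM added, 43 without top doublet scores, 28 in hashtags 1 and 2, 36 in Xist cells, 29 in Y-linked cells and 39 in cells of 5000 to 30000 UMIs; of the 17, 7 were among 20 called with a mean over cells, 6 among 20 with Tph1 at 0.1%, 10 in hashtags 1 and 2, 11 without top doublet scores, 14 in Xist cells and 1 in Y-linked cells. Genes lower (67) numbered 150 with 1 CPM added and 40 with a minimum of 200 UMIs. Genes higher in Tac1-rich members (643) numbered 222 with a minimum of 200 UMIs, 385 with a mean over cells, 206 without top doublet scores, 203 with Tph1 at 0.1%, 1200 with all barcodes and 294 in cells of 5000 to 30000 UMIs, and genes lower (553) numbered 219 with a minimum of 200 UMIs, 172 without top doublet scores, 202 with Tph1 at 0.1% and 280 in cells of 5000 to 30000 UMIs. The split could not be fitted in Y-linked cells. The range of 5000 to 30000 UMIs, members with at least 20 Chga UMIs, members with a hormone sum under 0.5% and Chga-low cells with few lymphocyte UMIs were chosen after seeing the data.

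Of 1492 values of named genes under alternatives, 1487 kept their direction. This count includes the changes of the UMI minimum, which leave a ratio as it is, and of the pseudocount, which cannot turn its sign. The named genes were also chosen for the size of their ratios, so the count is no measure of how stable other genes are. Against Afp-high enterochromaffin cells, Ifitm3 turned to -0.29 with Tph1 at 0.1% of UMIs, and H2-Eb1 (-0.23), Cd74 (-0.074) and Lgr5 (-0.10) turned in Y-linked cells; against Chga-low cells, Clps turned to 0.49 in cells of 5000 to 30000 UMIs. The cause was not tested, except that a higher minimum measures fewer genes and an origin has fewer cells. No paired analysis was possible because there was 1 library with no replicate.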
